A study of Mus musculus with 11 samples.

Results

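The 10 genes Cpa3, Mcpt4, Cma1, Tpsb2, Tpsab1, Kit, Ms4a2, Fcer1a, Mrgprb1 and Mrgprb2 encode granule proteases and surface receptors of mast cells. They were taken by name, as every probeset annotated to 1 of these symbols and to no other gene, and made up 10 of the 20352 genes and 91 of the 211507 probesets used. The level of a gene on an array was the median of the log2 signals of its probesets. Keratoacanthomas, skin tumours built of keratinocytes, were set against normal skin.

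Mast cells are long-lived tissue cells of the dermis that store histamine, heparin and proteases in granules and release them when antigen crosslinks IgE on the high-affinity receptor. Stem cell factor, acting on the receptor tyrosine kinase Kit, keeps them alive. In mouse skin the connective tissue type prevails, which holds the chymases Mcpt4 and Cma1 (mMCP-4 and mMCP-5), the tryptases Tpsb2 and Tpsab1 (mMCP-6 and mMCP-7) and carboxypeptidase A3, and carries Mrgprb2, a receptor for basic peptides and drugs. Mucosal mast cells of the mouse gut are known instead for the chymases Mcpt1 and Mcpt2.

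The 5 keratoacanthomas came from mice double transgenic for K14-Cre and Zmiz1. Of the 6 normal skins, 2 were of that double transgenic genotype (normal skins 1 and 2), 2 came from K14-Cre transgenic mice (normal skins 3 and 4) and 2 from Zmiz1 transgenic mice (normal skins 5 and 6), according to the sample labels. K14-Cre expresses Cre recombinase from the promoter of keratin 14, a keratin of basal keratinocytes, which limits the Cre to epithelial cells that use this promoter. Zmiz1 encodes a co-activator of transcription. Age, sex and strain were not given in the sources used here, nor was it stated whether each array held another animal, and p-values therefore cover only the variation from array to array, part of which may be technical.

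Amplified cDNA from each piece of tissue was hybridised to its own single-colour whole-transcript array. Array medians were 6.22 to 6.27 on the log2 scale, and correlations over all probesets were 0.943 to 0.960 among keratoacanthomas, 0.890 to 0.950 among normal skins and 0.801 to 0.915 between a tumour and a skin. The number of arrays limited the precision. Markers of basal keratinocytes averaged 9.35 to 9.48 in keratoacanthomas and 8.71 to 9.22 in normal skins. Keratoacanthoma 4 and normal skins 1 and 3 stood apart by hair keratins, whose 11 measured genes averaged 8.87 or more there, against 5.96 to 6.42 on the other arrays.

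Among the proteases, Cpa3, which trims C-terminal residues from peptides in the mast cell granule, was lower in the tumours. It read 5.70, 7.02, 7.17, 7.73 and 6.41 in keratoacanthomas 1 to 5, against a lowest value of 7.58, a median of 8.11 and a highest of 8.62 in normal skin. Only keratoacanthoma 4 reached into the range of the normal skins, where it exceeded normal skin 2 alone, and keratoacanthoma 1 was lowest. The means were 6.80 ± 0.78 in keratoacanthoma (SD, n = 5) and 8.13 ± 0.44 in normal skin (SD, n = 6). The log2 difference was -1.33 (SE 0.32, 95% interval -2.01 to -0.64), or 2.51-fold lower signal, with a limma adjusted p of 0.0078 and an exact two-sided permutation p of 0.0043. Because whole tissue was measured, fewer mast cells and less RNA per mast cell cannot be told apart.

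Mcpt4, the main chymase of connective tissue mast cells in the mouse, missed the threshold at the level of the gene. Its values were 6.56, 6.69, 7.12, 7.21 and 5.91 in keratoacanthomas 1 to 5, against 6.97 at lowest, 7.30 at the median and 7.89 at highest in normal skin. Keratoacanthomas 1, 2 and 5 lay below all normal skins, and keratoacanthomas 3 and 4 lay among them. The log2 difference of -0.66 (95% interval -1.18 to -0.15) had a limma adjusted p of 0.058 and an exact permutation p of 0.039.

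Cma1, the other chymase, read 4.90, 4.46, 5.03, 5.02 and 4.67 in keratoacanthomas, against 4.64, 5.15 and 5.55 as lowest, median and highest value in normal skin. The groups overlapped, and the log2 difference was -0.29 (95% interval -0.64 to 0.06, limma adjusted p = 0.21). The tryptases, which form heparin-bound tetramers, were not called either. Tpsb2 averaged 5.96 ± 0.12 in keratoacanthoma and 5.87 ± 0.19 in normal skin (SD, n = 5 and 6), a difference of 0.09 (95% interval -0.15 to 0.33, limma adjusted p = 0.59). Tpsab1 averaged 5.47 ± 0.13 in keratoacanthoma and 5.15 ± 0.32 in normal skin (SD, n = 5 and 6), with a difference of 0.32 (95% interval 0.00 to 0.64, limma adjusted p = 0.14). Its tumour values of 5.59, 5.52, 5.53, 5.25 and 5.46 were set against a range from 4.71 to 5.54 with a median of 5.16 in normal skin, which keratoacanthoma 1 alone exceeded. The intervals of Tpsb2 and Tpsab1 did not reach a fall of the size seen for Cpa3.

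The receptors gave no call. Kit read 5.98, 5.94, 6.42, 6.38 and 5.87 in keratoacanthomas, against 5.64, 6.32 and 6.69 as lowest, median and highest value in normal skin, and differed by -0.14 (95% interval -0.51 to 0.24, limma adjusted p = 0.61). Kit is also made by melanocytes, whose 11 markers averaged 5.19 to 5.81 in keratoacanthomas and 5.47 to 6.53 in normal skins. In that list Sox10, a transcription factor of melanocytes and Schwann cells, was the 1 gene called lower and none was called higher, while the pigment cell genes Mlana and Dct differed by -0.83 and -0.82 (limma adjusted p = 0.24 and 0.32). Since 10.8% of all genes were called lower and 14.5% higher, 1 call among the 11 markers is no result about melanocytes. The part of melanocytes in the Kit signal was not tested.

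Of the subunits of the high-affinity IgE receptor, Fcer1a encodes the chain that binds IgE and Ms4a2 the beta chain, which amplifies the signal. Fcer1a read 4.17, 5.31, 4.17, 4.51 and 3.61 in keratoacanthomas, against 3.47, 4.14 and 4.39 as lowest, median and highest value in normal skin, with keratoacanthoma 2 highest of all, a difference of 0.29 (95% interval -0.25 to 0.83, limma adjusted p = 0.44). Ms4a2 read 2.72, 3.09, 3.65, 3.64 and 2.98 in keratoacanthomas, against 3.10, 3.47 and 4.15 in normal skin, a difference of -0.27 (95% interval -0.72 to 0.18, limma adjusted p = 0.38). Both lay below the 25th percentile of all probesets in both groups, as did Mrgprb1 and Mrgprb2, so their medians came largely from dim probesets.

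The Mas-related receptors were lower on average without passing the threshold. Mrgprb2, through which basic secretagogues activate mouse mast cells, read 3.46, 4.44, 4.02, 4.45 and 3.48 in keratoacanthomas, against 4.09, 4.63 and 5.71 as lowest, median and highest value in normal skin. Keratoacanthomas 1, 3 and 5 were below every normal skin. The log2 difference averaged -0.83 (95% interval -1.48 to -0.18), with an exact permutation p of 0.058 and a limma adjusted p of 0.060. Mrgprb1, which is expressed in mouse connective tissue mast cells too, read 4.06, 4.45, 4.55, 4.64 and 4.33 in keratoacanthomas, against 4.26, 4.83 and 5.49 in normal skin, a difference of -0.41 (95% interval -0.81 to -0.01, limma adjusted p = 0.13).

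**Figure D1:**
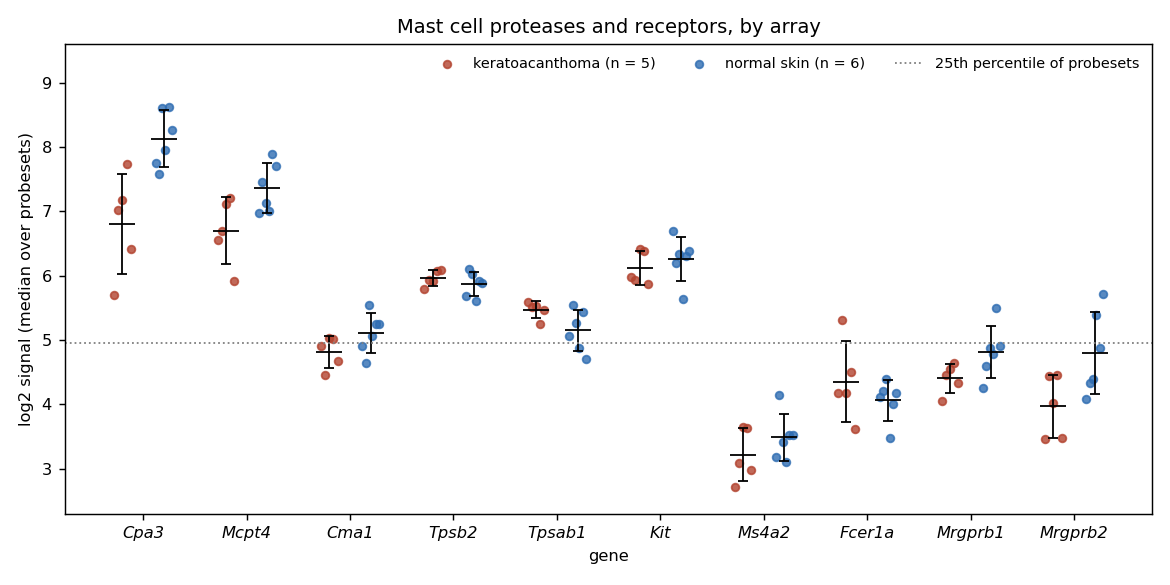
Log2 signal of the 10 genes on each array (median over a gene's probesets), with keratoacanthomas (n = 5) left of normal skins (n = 6), bars for mean ± SD and a dotted line at the 25th percentile of all probesets. Cpa3 is the gene whose difference passed the threshold, with 4 of 5 tumours below all normal skins, and the other 9 genes overlap without a call.

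In all, 1 of the 10 genes was called lower and 0 higher, where 10.8% of the 20352 genes were called lower and 14.5% higher. This share is close to the background and is no result about the 10 genes as a set. At an unadjusted p below 0.05 the limma test had 4 genes lower and 1 higher, and 2 genes had an exact permutation p below 0.05, of which the smallest possible with 5 and 6 arrays was 0.0022. The shares of all genes at these unadjusted cutoffs are not given here, so these counts are no result about the 10 genes. None of the 10 genes separated the groups without overlap, against 6.31% of all genes lower and 9.66% higher. Their median difference was -0.28, beside -0.04 over all genes. The count moved with single arrays, with 4 genes called lower (Cpa3, Mcpt4, Mrgprb1 and Mrgprb2) without normal skin 1, 3 (Cpa3, Mcpt4 and Mrgprb2) without keratoacanthoma 4 and 2 (Cpa3 and Mcpt4) without keratoacanthoma 3. The mean over probesets in place of their median also called 3 (Cpa3, Mcpt4 and Mrgprb2), and leaving out dim probesets called the same 3. The shares of all genes called in these other fits are not given here.

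The probesets of a gene did not always move alike. Of the 91 probesets, 11 were called lower and 2 higher by limma over all probesets, where 6.98% of the 211507 probesets were called lower and 8.29% higher. The 13 calls fell on 6 genes. All 11 probesets of Cpa3 had negative differences, from -1.65 to -0.33, and 7 of them were called. Probeset 10497452 read 8.49, 8.57, 8.60, 9.22 and 8.46 in keratoacanthomas, against 9.56, 9.86 and 9.98 as lowest, median and highest value in normal skin, a difference of -1.14 (limma adjusted p = 0.0010). On this probeset and on 3 others of Cpa3 all tumours were below all skins.

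All 6 probesets of Mcpt4 had negative differences, from -1.45 to -0.38, and 10420252 was called (7.03 in keratoacanthoma and 8.47 in normal skin on average, limma adjusted p = 0.015). For Cma1, 1 of 11 probesets, 10420226, was called lower, with 7.60 in keratoacanthoma and 8.54 in normal skin (difference -0.94, limma adjusted p = 0.038), and 6 of the 11 were dim. Mrgprb2 had 1 probeset that was not dim, 10563761, which read 3.46, 4.45, 4.01, 5.18 and 3.48 in keratoacanthomas, against 4.69, 6.53 and 8.34 as lowest, median and highest value in normal skin. Its mean of 4.12 in keratoacanthoma lay below the cutoff for dim probesets, a label it escaped through normal skin, at 6.50. Its difference of -2.38 (95% interval -3.66 to -1.10, limma adjusted p = 0.018) was not shared in size by the 2 dim probesets of the gene, at -0.48 and -0.31. Of the normal skins, the double transgenic ones read lowest on it, 5.38 and 4.69.

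The subunits of the IgE receptor had probesets that went opposite ways. For Ms4a2, probeset 10466222 was higher in every keratoacanthoma (8.26 to 8.70) than in any normal skin (7.07 to 7.70), a difference of 1.28 (limma adjusted p = 0.00030). The next in number, 10466223, averaged 7.76 in keratoacanthoma and 8.67 in normal skin, a difference of -0.91 (limma adjusted p = 0.020), while 4 of the other 5 were dim. With dim probesets left out, the median of Ms4a2 turned to 0.50 and was called higher. For Fcer1a, 10360340 averaged 6.14 in keratoacanthoma and 4.78 in normal skin, a difference of 1.35 (limma adjusted p = 0.030). Its normal skin mean lay below the cutoff for dim probesets, a label it escaped through the tumours. For 10360343 the means were 5.85 in keratoacanthoma and 6.45 in normal skin, a difference of -0.60 (limma adjusted p = 0.088). Neither gene therefore had 1 direction over its probesets.

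No probeset of Kit (23), Tpsb2 (14), Tpsab1 (8) or Mrgprb1 (3) was called. The differences of Kit ran from -0.71 to 0.68, with 14 negative. The count of 11 probesets called lower fell to 4 without keratoacanthoma 5 and to 7 without keratoacanthoma 2, normal skin 5 or normal skin 6. The count of 2 called higher was 4 without normal skin 2 and 1 without any of keratoacanthomas 2, 3 and 4 or normal skins 4 and 6.

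**Figure D2:**
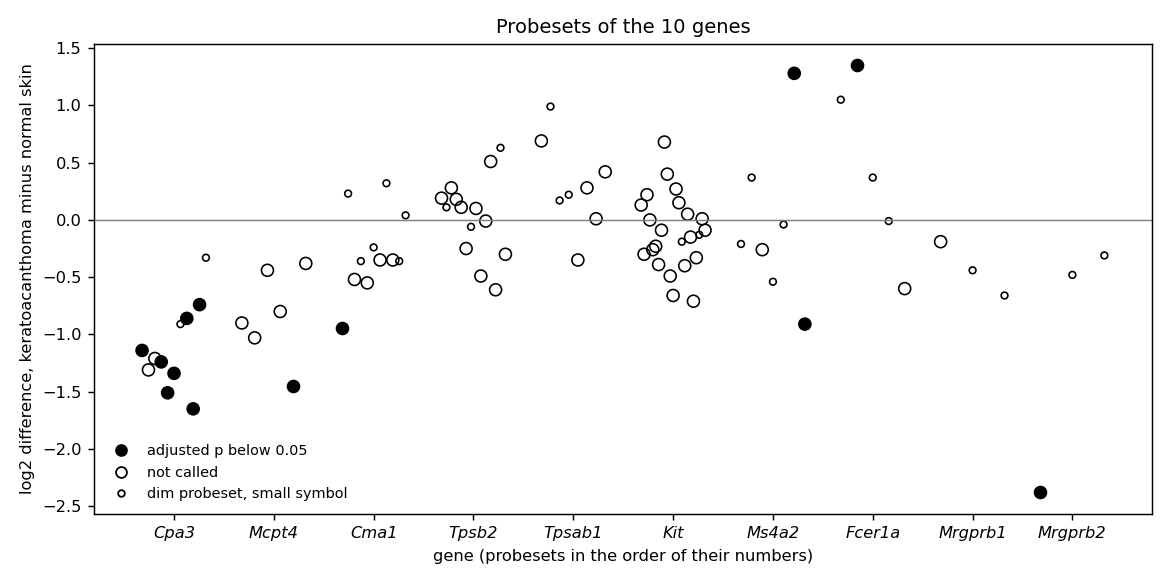
Log2 difference, keratoacanthoma minus normal skin, of each of the 91 probesets of the 10 genes, in the order of probeset numbers within a gene. Filled symbols passed an adjusted p of 0.05 and small symbols are dim probesets. Cpa3 lies below 0 throughout, while Ms4a2 and Fcer1a have filled symbols above 0.

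The promoters of the 4 genes whose called probesets were all lower are shown because GATA factors, Gata2 among them, drive mast cell genes. RefSeq sequences (GRCm38.p6) of the 250 bases before the start of the gene were given for 8 of the 10 genes, and the motif GATAA was searched on both strands. It stood in 6 of the 8 (75.0%), against 22.6% of 32851 promoters of the same length. The matches began 45 bases before the start in Cpa3, 102 in Mcpt4, 194 in Cma1 and 48 in Mrgprb2. Fcer1a held 1 and Ms4a2 held 3, and Kit and Mrgprb1 held none in this window. The motif CATGTG, an E-box of the kind that Mitf binds, was in 12.3% of all promoters and among the 8 only in that of Fcer1a, and CACGTG, in 6.02% of all, was in none. A match is a description of the letters and not a site of binding. Capitals mark GATAA or its reverse complement TTATC in the lines for Cpa3 (chr3:20242182-20242431, minus strand), Mcpt4 (chr14:56062311-56062560, minus strand), Cma1 (chr14:55944676-55944925, minus strand) and Mrgprb2 (chr7:48558087-48558336, minus strand), each written 5′ to 3′ along the gene.
Cpa3: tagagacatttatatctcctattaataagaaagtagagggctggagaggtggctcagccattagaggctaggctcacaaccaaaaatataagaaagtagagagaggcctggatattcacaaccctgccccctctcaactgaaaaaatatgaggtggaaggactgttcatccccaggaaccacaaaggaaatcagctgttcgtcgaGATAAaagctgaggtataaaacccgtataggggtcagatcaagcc
Mcpt4: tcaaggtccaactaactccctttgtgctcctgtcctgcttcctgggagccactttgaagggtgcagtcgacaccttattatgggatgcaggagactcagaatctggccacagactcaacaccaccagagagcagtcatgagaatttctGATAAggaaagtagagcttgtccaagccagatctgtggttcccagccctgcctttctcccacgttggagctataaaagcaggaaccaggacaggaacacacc
Cma1: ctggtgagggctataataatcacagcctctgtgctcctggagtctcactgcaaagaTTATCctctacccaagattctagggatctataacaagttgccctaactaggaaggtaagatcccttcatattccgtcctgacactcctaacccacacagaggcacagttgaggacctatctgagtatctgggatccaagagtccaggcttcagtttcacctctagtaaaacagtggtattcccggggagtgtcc
Mrgprb2: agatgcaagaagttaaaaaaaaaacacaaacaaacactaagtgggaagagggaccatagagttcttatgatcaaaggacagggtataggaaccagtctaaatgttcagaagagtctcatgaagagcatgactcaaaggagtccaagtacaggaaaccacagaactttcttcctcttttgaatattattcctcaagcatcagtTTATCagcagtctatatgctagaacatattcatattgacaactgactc

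Gata2 itself, measured outside the 10 genes, differed by -0.16 (limma adjusted p = 0.26). Among 12 transcription factors of mast cells, 2 were called lower and 1 higher, with a median difference of -0.16. With 10.8% of all genes called lower and 14.5% higher, these counts are no result about the list. Mitf, which drives Kit and protease genes in mast cells and pigment genes in melanocytes, read 5.61, 5.87, 5.60, 6.13 and 5.73 in keratoacanthomas, against 6.68, 6.92 and 7.28 as lowest, median and highest value in normal skin. All tumours were below all skins, with a difference of -1.14 (limma adjusted p = 7.3e-05). Stat5b, which acts downstream of Kit and cytokine receptors, was lower by a difference of -0.56 (limma adjusted p = 0.014), and Runx1, a factor of blood cells and hair follicles, was higher by 0.71 (limma adjusted p = 0.0087). Against double transgenic skin in the model of 4 groups neither was called, with differences of -0.59 and 0.34 (limma adjusted p = 0.061 and 0.25).

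The double transgenic genotype allows tumours to be set against tumour-free skin of the same genotype, with 2 normal arrays. In the limma model of 4 groups, 0 of the 10 genes were called lower or higher, where 6.93% of all genes were called lower and 10.6% higher. None of them reached an unadjusted p below 0.05 in that model. Cpa3 averaged 6.80 in keratoacanthoma and 7.67 in double transgenic normal skin, a difference of -0.86 (95% interval -1.81 to 0.08, limma adjusted p = 0.19). Mcpt4 differed by -0.52 (limma adjusted p = 0.26) and Mrgprb2 by -0.24 (limma adjusted p = 0.69). The median difference was -0.13, beside -0.05 over all genes. The interval of Cpa3 holds both 0 and the difference found against all 6 skins.

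Double transgenic normal skin read lower than single transgenic normal skin in several of the genes, without passing the threshold. Cpa3 read 7.75 and 7.58 in the double transgenic skins, against 8.61 and 7.96 in K14-Cre skins and 8.62 and 8.26 in Zmiz1 skins. Mrgprb2 read 4.09 and 4.33 in the double transgenic skins, against 4.40 and 5.39 in K14-Cre skins and 4.87 and 5.71 in Zmiz1 skins. The differences of double from single transgenic skin were -0.70 for Cpa3 (limma adjusted p = 0.62), -0.88 for Mrgprb2 (limma adjusted p = 0.47), -0.59 for Mrgprb1 (limma adjusted p = 0.40) and -0.50 for Cma1 (limma adjusted p = 0.45). In these 4 genes both double transgenic skins lay below all 4 single transgenic skins, as they did in 6.24% of all genes. None of the 10 genes was called (0.0147% of all genes were), and 3 were lower at an unadjusted p below 0.05, namely Cma1, Mrgprb1 and Mrgprb2. The share of all genes at that unadjusted cutoff is not given here, so this count is no result about the 10 genes. An exact permutation test of 2 against 4 arrays cannot go below 0.067. With the 4 single transgenic skins alone as the other group, 4 genes (Cma1, Cpa3, Mrgprb1 and Mrgprb2) were called lower in keratoacanthoma, and with the 2 double transgenic skins alone 0 were. Those fits differ in the number of arrays, and the shares of all genes they called are not given here. The counts can therefore not be compared with each other.

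Several granule genes outside the 10 were higher in the tumours. Of 7 further granule proteases measured, 3 were called higher and 0 lower, with a median of 0.39. Over all genes, 14.5% were called higher and 10.8% lower. Mcpt1, the chymase of mouse mucosal mast cells, read 6.50, 7.01, 6.82, 3.94 and 7.15 in keratoacanthomas, against 3.63, 3.86 and 4.17 as lowest, median and highest value in normal skin. Keratoacanthoma 4 lay within the range of normal skin, and the other 4 tumours lay above every normal skin. The difference was 2.40 (SE 0.46, limma adjusted p = 0.0020), with 5 of 6 probesets called higher.

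Mcpt2, the other mucosal protease, read 5.96, 6.93, 7.09, 3.91 and 7.11 in keratoacanthomas, against 3.30, 3.57 and 3.89 in normal skin, a difference of 2.63 (SE 0.47, limma adjusted p = 0.0013). Here too keratoacanthoma 4 was at the level of normal skin, just above its highest value. Without it, the differences of Mcpt1 and Mcpt2 were 2.98 and 3.20. Against double transgenic skin in the model of 4 groups, Mcpt2 was called higher (2.51, limma adjusted p = 0.033) and Mcpt1 was not called (2.12, limma adjusted p = 0.055). In a fit with those 2 double transgenic normal skins as the sole normal skin, neither was called (limma adjusted p = 0.063 for Mcpt2 and 0.096 for Mcpt1). Probes of 1 gene may bind transcripts of a near copy, so the split of signal among Mcpt1, Mcpt2, Mcpt4 and Cma1 is uncertain, as is that between Tpsb2 and Tpsab1 and among the Mrgprb genes.

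The promoter of Mcpt1 (chr14:56017714-56017963, plus strand) is set beside that of Mcpt4, printed above, because the differences of the genes, 2.40 for Mcpt1 and -0.66 for Mcpt4, had opposite signs, the second without a call. In a global alignment 209 bases of 250 were identical (83.6%), and the GATAA of Mcpt1 began 98 bases before the start.
Mcpt1: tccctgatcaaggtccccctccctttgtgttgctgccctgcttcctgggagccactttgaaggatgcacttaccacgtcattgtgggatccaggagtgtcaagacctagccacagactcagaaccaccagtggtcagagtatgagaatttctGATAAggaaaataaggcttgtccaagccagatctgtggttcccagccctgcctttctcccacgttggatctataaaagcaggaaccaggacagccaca

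Mcpt8, a protease of mouse basophils, was higher in all 5 tumours than in any skin. It read 5.65, 5.59, 5.64, 6.30 and 5.79 in keratoacanthomas, against 3.94, 4.25 and 5.12 in normal skin, a difference of 1.37 (SE 0.24, limma adjusted p = 0.00099). All 6 probesets of Mcpt8 had positive differences, from 0.42 to 3.59, and 2 of them were called higher. Keratoacanthoma 4, lowest for Mcpt1, was highest for Mcpt8. Of the 5 basophil markers, Mcpt8 was the 1 called, with list means of 5.01 to 5.49 in keratoacanthomas and 4.83 to 5.15 in normal skins. Cd200r3, an activating receptor of mouse basophils and mast cells, differed by -0.36 (limma adjusted p = 0.33). Given that 14.5% of all genes were called higher, 1 call among 5 markers is no result about basophils.

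**Figure D3:**
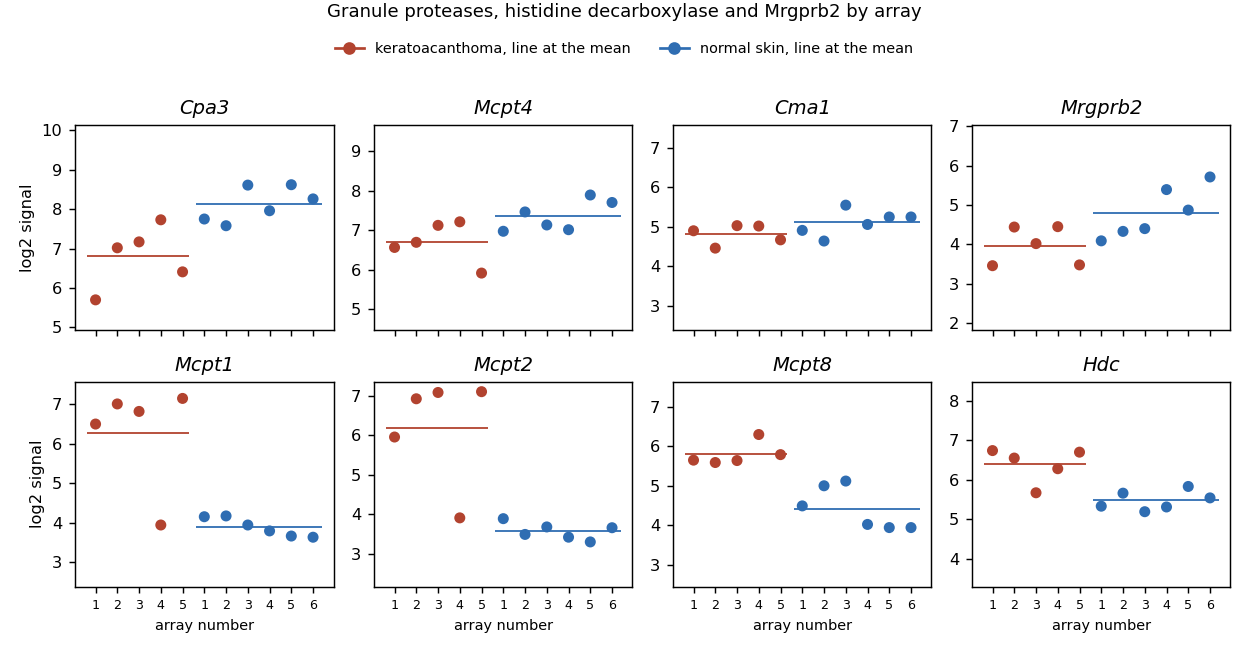
Log2 signal on each array for 4 of the 10 genes (upper row) and for Mcpt1, Mcpt2, Mcpt8 and Hdc (lower row), keratoacanthomas 1 to 5 left of normal skins 1 to 6, with a line at each group's mean. Cpa3 lies lower in most tumours. Mcpt1 lies above all normal skins in 4 of 5 tumours and within their range in keratoacanthoma 4. Mcpt2 lies above them in all 5 tumours, but only just in keratoacanthoma 4.

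Among 10 genes of granule amines and proteoglycans, 4 were called higher and 0 lower (median 0.16), against 14.5% and 10.8% of all genes. Hdc, which makes histamine, read 6.74, 6.55, 5.67, 6.28 and 6.70 in keratoacanthomas, against 5.19, 5.44 and 5.83 in normal skin, a difference of 0.91 (limma adjusted p = 0.0033), and 8 of its 13 probesets were called higher. Against double transgenic skin, Hdc was called in the model of 4 groups (0.89, limma adjusted p = 0.037). With that skin as the sole normal skin it was not called (limma adjusted p = 0.065). Srgn, the core protein that holds granule proteases, was higher by 0.64 (limma adjusted p = 0.011), and Ext1, which builds heparan chains in many cell types, by 2.00 (limma adjusted p = 8.4e-06). Hdc and Srgn are also expressed by neutrophils, and 6 of 8 neutrophil markers were called higher. Their list mean was 6.98 to 8.17 in keratoacanthomas and 5.14 to 5.83 in normal skins, with differences of 4.26 for the alarmin S100a8 and 3.69 for the chemokine receptor Cxcr2. The 2 neutrophil markers not called were Ly6g (0.30, limma adjusted p = 0.28) and Mmp8 (0.56, limma adjusted p = 0.073). The part of neutrophils or basophils in the Hdc and Srgn signals was not tested.

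Of 15 genes of signalling below the IgE receptor, 1 was called lower and 1 higher, with a median of 0.01. Beside 10.8% of all genes called lower and 14.5% higher, these counts are no result about the list. Plcg2, the phospholipase that raises calcium, was higher by 0.54 (limma adjusted p = 0.0016). Btk, a kinase shared with B and myeloid cells, was lower with a difference of -0.43 (limma adjusted p = 0.048), a call lost without any of keratoacanthomas 1 to 5 or normal skins 1, 3, 5 and 6, where its adjusted p was 0.062 to 0.11.

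Of 10 growth and activating ligands, 2 were called higher and 0 lower, with a median of 0.14. As 14.5% of all genes were called higher and 10.8% lower, these counts are no result about the list. Tslp, an epithelial cytokine that acts on mast cells and dendritic cells, read 8.94, 9.87, 8.83, 9.19 and 9.79 in keratoacanthomas, against 5.73, 6.05 and 6.42 in normal skin, a difference of 3.26 (limma adjusted p = 3.5e-07). All tumours were above all skins. Il33, an alarmin that activates mast cells through its receptor, was higher by 0.87 (limma adjusted p = 0.018). With single transgenic skin as the sole normal skin Il33 was not called (0.82, limma adjusted p = 0.062). Kitl, which encodes stem cell factor, differed by -0.39 (limma adjusted p = 0.16).

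Of 12 cytokine receptor genes, 4 were called higher and 0 lower, with a median of 0.24. They included the shared gamma chain Il2rg (1.55, limma adjusted p = 0.00064), Il7r, which pairs with the Tslp receptor chain (1.21, limma adjusted p = 0.0026), and Il4ra (0.83, limma adjusted p = 0.0021). These receptors occur on lymphocytes and other cells as well, and of 7 T cell markers 1 (Cd3g) was called lower and none higher. The shares over all genes were 10.8% lower and 14.5% higher. Against double transgenic skin, Il4ra was called in the model of 4 groups (limma adjusted p = 0.040). It was not called with that skin as the sole normal skin (limma adjusted p = 0.058).

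Of 8 lipid mediator enzymes, 3 were called higher and 1 lower, with a median of 0.07, against 14.5% and 10.8% of all genes. Ptgs2, the inducible cyclooxygenase, was higher by 3.26 (limma adjusted p = 2.2e-07) and Pla2g4a, which frees arachidonic acid, by 0.79 (limma adjusted p = 0.0029). Alox5, the first enzyme of leukotriene synthesis, was lower, with a difference of -0.85 (limma adjusted p = 0.0049). Hpgds and Ltc4s, the enzymes that make the prostaglandin and leukotriene typical of mast cells, differed by 0.23 and -0.09 (limma adjusted p = 0.61 and 0.75). Against double transgenic skin in the model of 4 groups, Hpgds was called higher by 1.01 (95% interval 0.59 to 1.44, limma adjusted p = 0.0065), while Alox5 (-0.67) and Pla2g4a (0.72) were not called (limma adjusted p = 0.080 and 0.059). Double transgenic minus single transgenic skin was -1.17 for Hpgds, which was not called (limma adjusted p = 0.23).

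Of 11 other Mas-related receptors, 1 was called lower and 0 higher, with a median of -0.14. It was Mrgprb3, a near relative of Mrgprb2 with 1 probeset, which read 5.15, 4.98, 4.95, 5.36 and 4.97 in keratoacanthomas, against 5.83, 6.42 and 7.15 in normal skin. All tumours were below all skins, with a difference of -1.37 (SE 0.24, limma adjusted p = 0.0010). Of 4 genes of histamine reception and breakdown none was called, and Hnmt, which methylates histamine, had the largest difference among them, -0.51 (limma adjusted p = 0.093). Set against 10.8% of all genes called lower and 14.5% higher, these counts are no result about either list.

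**Figure D4:**
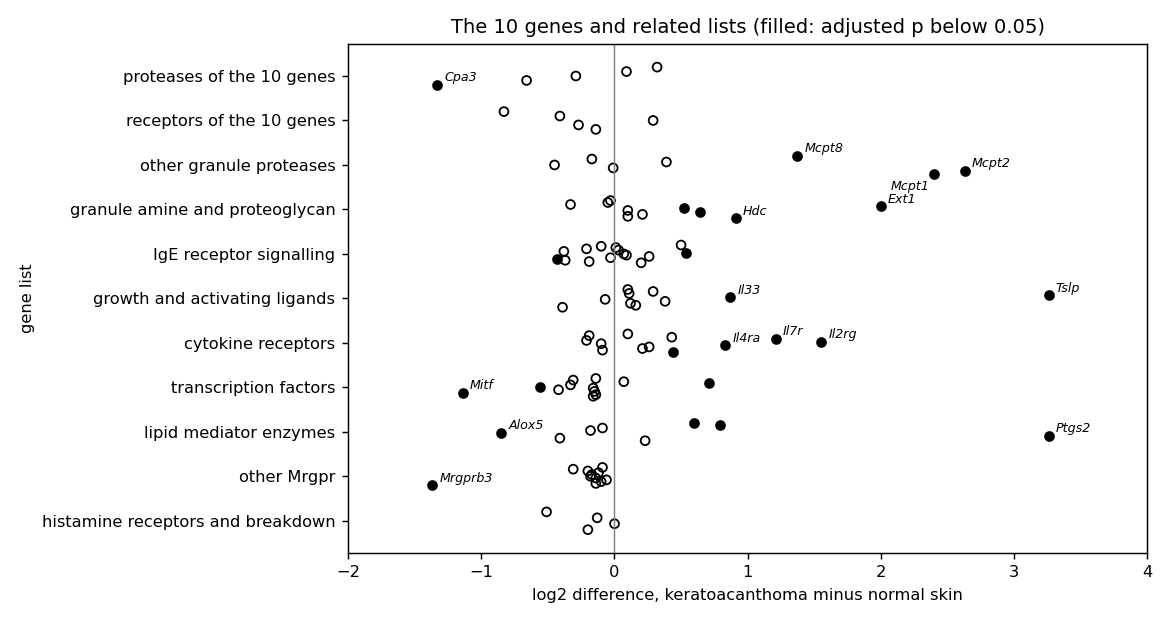
Log2 difference, keratoacanthoma minus normal skin, of each measured gene of the 10 and of 9 related lists, 1 symbol per gene, filled where the limma adjusted p was below 0.05. Cpa3 is the filled symbol among the 10 genes, and Mcpt1, Mcpt2 and Mcpt8 are filled on the right among the other granule proteases.

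Markers of muscle, fat and Schwann cells were lower in the tumours throughout, and those of fibroblasts and macrophages in part. Of 14 fibroblast markers 6 were called lower and 0 higher, and 8 were not called, with list means of 6.83 to 7.79 in keratoacanthomas and 7.88 to 8.44 in normal skins. Dpt and Dcn, matrix proteins of the dermis, differed by -2.02 and -1.87. All 10 skeletal muscle markers and all 8 fat cell markers were called lower, with list means of 5.85 to 7.51 and 5.36 to 6.61 in keratoacanthomas, against 10.6 to 11.8 and 7.24 to 8.54 in normal skins. Of 9 macrophage markers 2 were called lower and 0 higher (list mean 6.65 in keratoacanthomas and 7.21 in normal skins), and 7 were not called. All 4 measured Schwann cell markers, Sox10 among them, were called lower, with a median difference of -0.73. Their list means were 5.02 to 5.19 in keratoacanthomas and 5.57 to 6.31 in normal skins. Of 9 endothelial markers 2 were called lower and 2 higher, with a median difference of 0.08. For comparison, 10.8% of all genes were called lower and 14.5% higher.

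Between tumours, the list means of macrophages, fat, fibroblasts and muscle followed the order of Cpa3 in large part, but none matched it in full. Among the remaining cell type lists, keratoacanthoma 4 was highest of the tumours in the melanocyte, basophil and hair keratin means. It was lowest in the endothelial (6.12), neutrophil (6.98) and Schwann cell (5.02) means, and neither in the T cell and basal keratinocyte means. Cpa3 rose in the order keratoacanthoma 1, 5, 2, 3 and 4. The macrophage mean differed from this order only by an exchange of keratoacanthomas 3 and 4, and the fat mean only by one of 1 and 5. In the fibroblast mean 2 and 5 were exchanged, as were 3 and 4. In the muscle mean keratoacanthoma 1 stood above 5 and 2. Keratoacanthoma 1, lowest in Cpa3 at 5.70, had the lowest fibroblast mean (6.83) and the lowest macrophage mean (5.93), but its muscle mean (6.75) and fat mean (5.66) were above those of keratoacanthoma 5 (5.85 and 5.36). Keratoacanthoma 4, highest in Cpa3 at 7.73, had the highest muscle mean (7.51) and fat mean (6.61) of the tumours, but its fibroblast mean (7.64) was below that of keratoacanthoma 3 (7.79), which also had the highest macrophage mean. With each array centred on its fibroblast list, the median of all genes moved to 0.75, 1.52% of genes were called lower and 80.1% higher. The centring shifts the differences of all genes by the same amount, so the place of a gene relative to their median is unchanged by it. On the centred scale Cpa3 differed by -0.53 (95% interval -1.04 to -0.01, limma adjusted p = 0.054). Mcpt4 and Mrgprb2 differed by 0.13 and -0.03 on that scale, and Fcer1a, Kit, Ms4a2, Tpsab1 and Tpsb2 were called higher, by 0.53 to 1.12. Because it subtracts 1 value per array from all genes, the centring is no test of tissue composition. The part of tissue composition in the Cpa3 result was not tested.

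Within the groups, the genes varied together only in part. After subtraction of each group's mean, the Pearson correlation over the 11 arrays was 0.75 between Cpa3 and Mrgprb1, 0.58 between Cpa3 and Mcpt4, 0.50 between Cpa3 and Cma1 and 0.37 between Cpa3 and Kit. Tpsab1 ran at -0.22 with Cpa3 and at -0.64 with Mrgprb2. The arrays share tissue content and processing, so these are descriptions of 11 arrays. The genes most like the mean of the 10 by the same measure were Lbp (0.934), Cd209f (0.924), Vps13c (0.920), Cd163 (0.916), Ogfod3 (0.914) and F13a1 (0.905). Cd163, Cd209f and F13a1 are known from tissue macrophages, and they differed between keratoacanthoma and normal skin by -1.16 (limma adjusted p = 0.086), -1.92 (limma adjusted p = 0.010) and -1.86 (limma adjusted p = 0.0019). Lbp, Vps13c and Ogfod3 differed by -0.33, -0.73 and -0.38 (limma adjusted p = 0.50, 0.0040 and 0.13).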

How the data were processed

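The deposited table held log2 values for 11 arrays, for which the submitters' processing notes name RMA, Partek and build mm9. RMA corrects background, normalizes by quantiles and summarises probes. Versions and settings were not given in the sources used here. Values ran from 0.994 to 15.2, and their normalization was kept. Of 241576 probesets, 212097 named 1 gene, 4475 several (among them 1 that names 1 of the 10 genes) and 25004 none. After 590 copies with identical values were dropped, 211507 probesets gave 20352 genes, and 2742 of 20416 symbols were updated through the RefSeq table. "Dim" means a mean below the 25th percentile of all probesets (4.88 to 4.95 by array). For a probeset the mean was taken over all 11 arrays, so a probeset high in 1 group alone could escape the label. There is no detection call in the table, and positions in mm9 were not used.

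Groups were fitted with limma 3.58.1 in R 4.3.3 (lmFit, eBayes, Benjamini-Hochberg over all genes or all probesets, adjusted p below 0.05). A model of 4 groups gave the comparisons by genotype. Single genes were also tested by exact two-sided permutation over the 11 arrays (462 splits). Python 3.11.15, pandas 2.3.3, numpy 2.4.6, matplotlib 3.10.9 and Biopython 1.88 (alignments) made the tables and figures.

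The 10 genes, the lists and the rule for named genes were chosen with earlier results of these data known. The rule named the 10 genes, up to 3 called genes per related list with the largest differences plus up to 2 in the opposite direction (or the largest difference where none was called), 2 markers per cell type, and the 6 genes most like the mean of the 10. From some cell type lists counts alone are given. Gata2, Kitl, Hpgds, Ltc4s, Sox10, Cd3g, Ly6g and Mmp8 were named after their values were seen.

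Alternatives were another probeset summary, dim probesets or genes left out, quantile normalization, median centring, trended and robust variance, array weights, a block by number, hair keratins as a covariate, centring on fibroblast markers, either kind of normal skin alone, and each array left out. Tested on simulated data over 20352 genes, the comparison of keratoacanthoma with normal skin called 20.9% of 67 genes given a log2 change of 0.5, 74.6% of 67 given 1 and 98.5% of 66 given 2. That with double transgenic skin called 4.5%, 47.8% and 90.9%.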

Additional observations from a re-analysis of the deposited data

Results flagged for a closer look

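Among 90 groups checked (45 genes named or listed, in keratoacanthoma and in normal skin), 4 had a sample far from the others of its group, where chance gives about 1 in 20 groups. Mcpt1 was 3.94 in keratoacanthoma 4 and 6.50 to 7.15 in the other keratoacanthomas. Mcpt8 was 6.30 in the same keratoacanthoma 4 and 5.59 to 5.79 in the others. Il2rg, the shared gamma chain of cytokine receptors, was 7.36 in normal skin 5 and 5.76 to 6.26 in the other normal skins. Cxcr2, a chemokine receptor of neutrophils, was 5.63 in normal skin 1 and 3.99 to 4.46 in the others. None of the 10 mast cell genes had such a sample.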

How the results depend on the processing

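Against 1 gene called lower in keratoacanthoma than in normal skin, 3 were called with the mean over probesets or without dim probesets, 2 without dim genes, with quantile normalization, with array weights or with hair keratins as a covariate, 0 after centring on the fibroblast list or against double transgenic skin alone, and 4 against single transgenic skin alone. Without dim probesets, Mrgprb2 was called through a probeset that was kept by its level in normal skin. Leaving out 1 array gave 1 to 4 lower and 0 higher. Against 0 called higher, there was 1 without dim probesets (Ms4a2) and there were 5 after fibroblast centring. After that centring 2 genes (Fcer1a and Tpsab1) were also called higher against double transgenic skin. Cpa3 stayed between -1.56 and -1.05 with 1 array left out (limma adjusted p 0.0026 to 0.024), and lost its call against double transgenic skin alone (-0.86, limma adjusted p = 0.23) and after fibroblast centring (-0.53, limma adjusted p = 0.054). Of the probesets of the 10 genes, those called lower numbered 4 to 15 and those called higher 1 to 4 with 1 array left out. Except for fibroblast centring against all normal skins, the shares of all genes or probesets called in these alternatives are not given here.

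Fibroblast centring, by its construction, moved all genes up (their median to 0.75), and with it these differences turned positive, namely Mcpt4 0.13, Cma1 0.51, Kit 0.66, Ms4a2 0.53, Mrgprb1 0.39, Btk 0.37, Stat5b 0.24, Hnmt 0.28, Cd200r3 0.44, Lbp 0.47, Vps13c 0.072 and Ogfod3 0.42, and against double transgenic skin Mcpt4 0.26 and Mrgprb2 0.54. Against double transgenic skin alone Cma1 turned to 0.040 and Lbp to 0.20. Without dim probesets Tpsb2 turned to -0.11 and Ms4a2 to 0.50, and the cause was not tested. Over 1164 alternatives for single genes, 1074 kept direction and side of the threshold, 42 lost the call, 30 gained it and 18 changed sign.

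The labels do not say whether same-numbered arrays are paired. Deviations of same-numbered arrays correlated at -0.181 to 0.103, which cannot exclude pairing. Same-numbered tumours and skins shared the double transgenic genotype for numbers 1 and 2 only. With the number as a replicate block, in which normal skin 6 stands alone, 1 gene was called lower and 0 higher, and 4 probesets lower and 1 higher. The signal of the dim genes Ms4a2, Fcer1a, Mrgprb1 and Mrgprb2 limits what their medians can show.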
